A study of Mus musculus with 6 samples.

Results

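The genes described here are the machinery of cyclic AMP (cAMP) signalling, from the enzymes that make this second messenger to the transcription factor CREB and its partners. They were taken by symbol from a list of 48 genes, and each of the 48 matched 1 gene identifier among the 55416 in the files. The list held 8 adenylyl cyclases, 5 G protein alpha subunits, 7 subunits and inhibitors of protein kinase A (PKA), 5 anchoring proteins, 9 phosphodiesterases, 2 Epac exchange factors, 7 CREB factors and 5 coactivators. The series asked what primary cilia do in oligodendrocyte precursors, the progenitors of the myelin-forming cells, and its title names CREB signalling. RNA came from precursors isolated from mouse cortex at postnatal day 11, each library from a pool of 4 to 6 mice. The 3 cKO libraries were labelled Pdgfra-Cre:Ift88 fl/fl; RosaEYFP, so that cells with Pdgfra promoter activity lose Ift88, a transport protein needed to build the cilium. The 3 control libraries were labelled Pdgfra-Cre:Ift88 fl/wt; RosaEYFP. The controls thus also carried Cre, the EYFP reporter and 1 floxed Ift88 copy, and no group without Cre was analysed here. P-values measure the spread between pools of mice.

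Adenylyl cyclases are membrane enzymes that turn ATP into cAMP. The stimulatory alpha subunit Gs switches most of them on and the inhibitory Gi subunits switch several of them off. cAMP binds the regulatory subunits of PKA and frees the catalytic subunits, anchoring proteins (AKAPs) hold the kinase at its targets, and phosphodiesterases break cAMP down. Epac proteins are a second class of cAMP receptor that act on the small GTPase Rap. PKA phosphorylates CREB, which then recruits the acetyltransferases CBP and p300. The CRTC proteins are further coactivators of CREB. Adcy3 is the cyclase used as a standard marker of primary cilia on neurons and astrocytes.

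Levels are given as counts scaled to the total of their library (CPM). Reads were tags near the 3' end of the transcript, so CPM were compared between genes without a length correction. Total counts lay between 11773548 and 13909236 in the 5 deeper libraries, and cKO replicate 2 had 568509. A count of 0 allowed up to 0.216 to 0.255 CPM in a deeper library, while the limit in cKO replicate 2 was 5.28 CPM, covering counting error only. The targeted gene Ift88 had 143, 32 and 167 counts across the control pools, against 1, 0 and 305 across the cKO pools. The sources used here do not say which exons are floxed, so its 3' tag does not check the genotype labels. Of 12 precursor markers, 3 (Sox10, Gpr17 and Tnr) had 0 counts in all 6 libraries and 3 more reached 20 counts in every deeper library. These 12 markers summed to 340, 480 and 238 CPM across the control pools, against 225, 7.04 and 222 CPM in cKO replicates 1 to 3. Of these, C1ql1 gave 92.0, 297 and 135 CPM against 20.3, 1.76 and 29.1 CPM. Pdgfra, Cspg4 and Vcan were instead higher in cKO replicates 1 and 3 than in every control. Pdgfra had 0 counts in control replicate 1, and Olig1 and Olig2 had counts only in cKO replicate 3. The 9 neuron markers summed to 5710, 4867 and 1641 CPM in the controls and to 5854, 1639 and 6129 CPM in cKO replicates 1 to 3, where 1 of them, Gad1, had 0 counts. Astrocyte markers (8 genes) summed to 676 to 1112 CPM in the controls and 649 to 784 CPM in the cKO libraries, where Aqp4, Aldh1l1 and Mlc1 had 0 counts. Gfap and Gja1 were also lower in every cKO library than in every control. Slc1a3 was higher in every cKO library and gave all 682.5 CPM of cKO replicate 2. The 6 choroid plexus markers, of which Kl was at 0 throughout, summed to 359, 144 and 125 CPM in the controls and to 562, 47580 and 822 CPM in the cKO libraries, mostly through Ttr in cKO replicate 2. Myelin markers (6 genes, with Mog, Mag and Mobp at 0 throughout) summed to at most 143 CPM, endothelial markers (4 genes, Flt1 at 0) to at most 84.3 CPM and microglial markers (6 genes, 3 at 0) to at most 5.18 CPM in any library. In these bulk libraries, fewer cells of a type and less RNA per cell cannot be told apart.

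Most of the machinery was detected in the 5 deeper libraries and nearly absent from cKO replicate 2. In the deeper libraries 35 to 43 of the 48 genes had at least 20 counts, and 29 had at least 20 in all 5. In cKO replicate 2, 42 of 48 had 0 counts and 3 had at least 20: Prkar1a with 753, Crtc2 with 58 and Prkar2b with 45. For 24 genes the lowest of the other 5 libraries corresponded to at least 3 reads at the depth of cKO replicate 2, and 19 of these 24 had 0 counts there. Among all genes that met the same condition the share at 0 was 61.7% (4361 of 7072). The 48 genes together made up 2919, 2738 and 2711 CPM in the controls, 3663 and 3260 CPM in cKO replicates 1 and 3, and 1513 CPM in cKO replicate 2, where Prkar1a alone gave 1325 CPM. Libraries of 1 group also differed from each other: 6 of the 48 genes had 0 counts in 1 control and at least 100 in another, and 13.1% of all genes with a mean of at least 20 counts did so. Because cKO replicate 2 stood apart, each comparison was made with and without it.

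**Figure D1:**
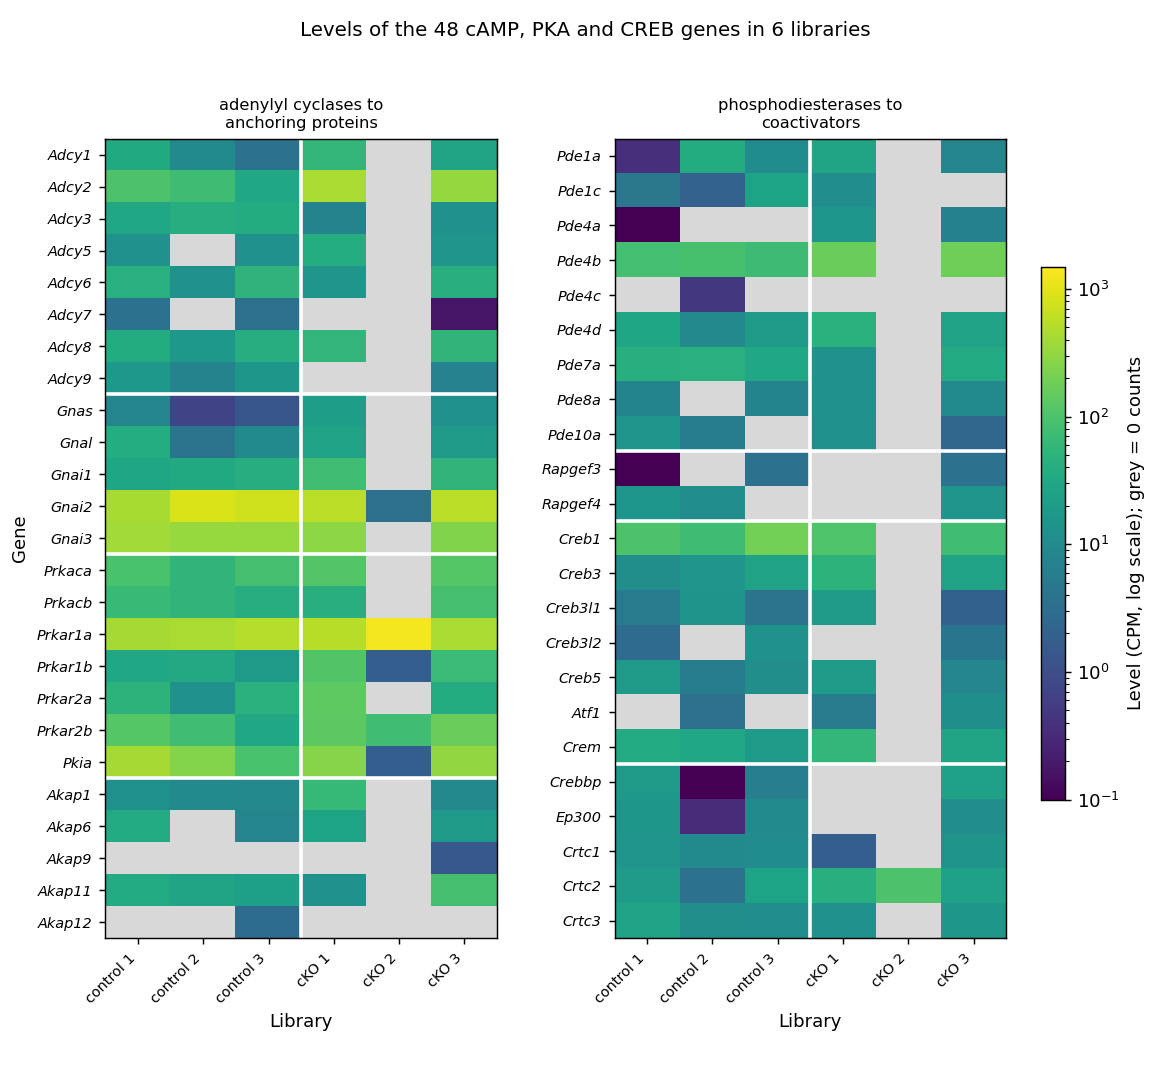
Level of each of the 48 genes (rows, white lines between classes) in each library (columns), coloured by CPM on a log scale, with 0 counts in grey. The column of cKO replicate 2 is grey for 42 of 48 genes, and the brightest cells in the other columns are Gnai2, Gnai3, Prkar1a, Pkia and, in cKO replicates 1 and 3, Adcy2.

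None of the 48 genes passed the test in either comparison. The standard errors of their log2 fold changes without cKO replicate 2 ran from 0.25 for Prkar1a to 3.34 for Adcy7, so missing the threshold does not show that levels were alike. With all 6 libraries 42 genes could be tested and 0 passed an adjusted p of 0.05 by edgeR's quasi-likelihood test, while 0.0156% of all 12833 genes tested passed (0.00779% higher and 0.00779% lower in the cKO libraries). At an unadjusted p under 0.05 the 6-library comparison held 0 of the 42 by edgeR, against 2.83% of all genes (1.30% higher and 1.53% lower), and 1 of the 42 by DESeq2, against 6.31% of all genes by that tool. Without cKO replicate 2, 45 could be tested and 0 passed by edgeR, against 0.00687% of all 14562 genes, 0.00% higher and 0.00687% lower. At an unadjusted p under 0.05 by edgeR, 5 of the 45 passed without cKO replicate 2: Adcy2, Prkar1b, Pde4b and Pde4a with higher and Adcy3 with lower levels in the cKO libraries. Of all genes 6.09% did so, 3.06% with higher and 3.03% with lower levels. DESeq2 called Adcy2 and Pde4a among the 45 (adjusted p = 0.00129 and 0.0191), both higher in the cKO libraries, and it called 0.824% of all 14562 genes higher and 1.22% lower. Over the alternatives the adjusted p ran from 0.00129 to 1 for Adcy2 and from 0.0191 to 1 for Pde4a.

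The fold changes of the machinery leaned towards higher values in cKO replicates 1 and 3. Without cKO replicate 2 the median log2 fold change was 0.57 over the 45 genes tested, with 31 above 0, and -0.06 over all genes, of which 47.9% were above 0. With no filter on low counts the 48 genes had a median of 0.57 and all genes of -0.15. With all 6 libraries the median was 0.00 over 42 genes and -0.44 over all genes, so that values from that fit are best read against the latter. The summed neuron and choroid plexus markers given above were also higher in cKO replicates 1 and 3 than in every control. For the neuron markers the sum of cKO replicate 1 was close to that of control replicate 1 (5854 against 5710 CPM). The choroid plexus sum was higher there through Ttr, with 376 and 574 CPM against at most 25.1 CPM in the controls. Aqp1 was instead highest in control replicate 1, and Enpp2 overlapped. The part of these markers in the medians was not tested. Separation of the groups gave a second description. Of the 44 genes with a mean of at least 20 counts over the 5 deeper libraries, 12 were higher in both cKO replicates 1 and 3 than in every control, against 13.0% of all 14462 such genes. A further 3, Adcy3, Adcy9 and Gnai3, were lower, against 12.3%. The 12 were Adcy2, Adcy5, Adcy8, Gnas, Gnai1, Prkaca, Prkar1b, Prkar2b, Pde4a, Pde4b, Pde8a and Atf1. With cKO replicate 2 included, 0 of 43 genes were higher in every cKO library, against 1.21% of all genes, and Adcy3, Adcy9 and Gnai3 were lower, against 10.5%. Without cKO replicate 3 as well, which leaves 1 cKO library, 22 of the 44 were higher and 8 lower, against 27.3% and 30.2% of all such genes.

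**Figure D2:**
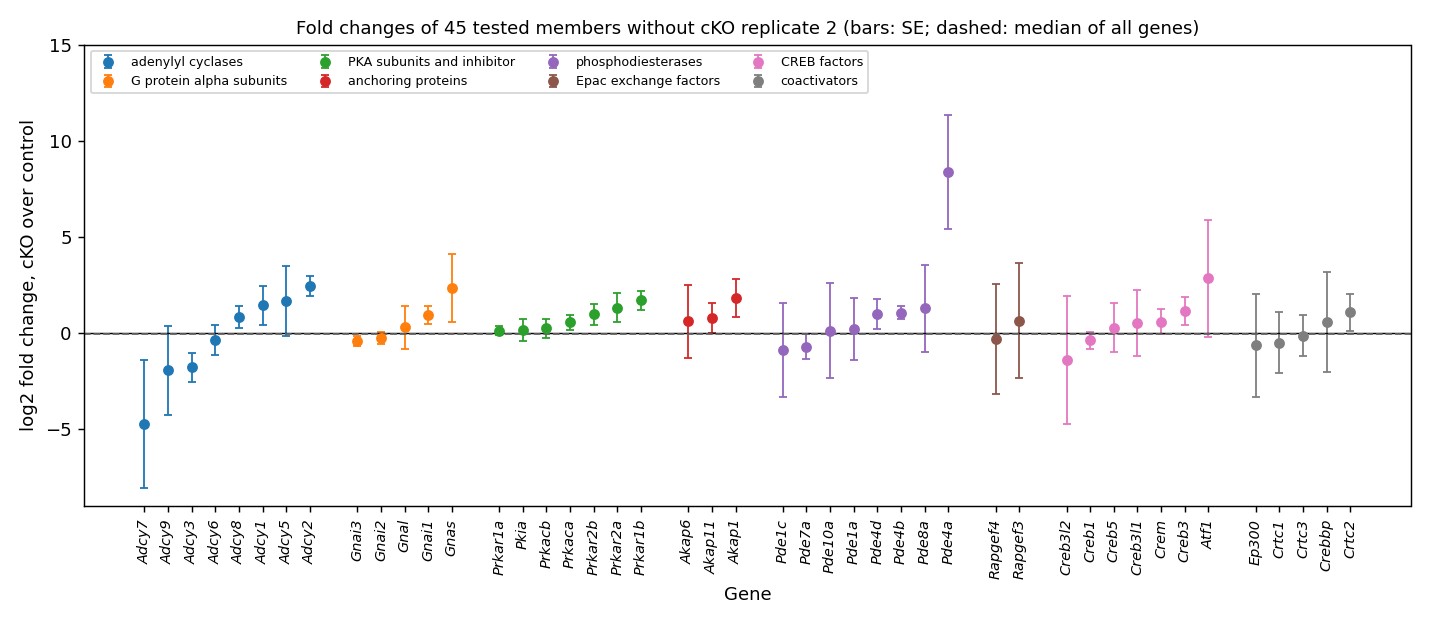
Fitted log2 fold change (cKO over control, vertical axis) of the 45 tested genes without cKO replicate 2, grouped by class along the horizontal axis, with SE bars and the median of all genes as a dashed line. All 7 PKA genes lie above 0, and the bars of Pde4a, Atf1, Adcy7 and the Epac genes are among the widest.

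The promoters of 6 of these genes are shown because CREB binds the cAMP response element, whose palindromic form is TGACGTCA, and because they belong to the 4 genes with the smallest p among those with higher cKO values and to the 2 genes with a palindromic site. RefSeq promoters (GRCm38.p6, from 250 bases before to 50 after the start) were listed for 38 of the 48 genes, 72 windows in all. The palindrome was found in 3 of these 72 windows, belonging to Prkar1a and Creb5, and in 1.79% of all 32851 windows. Its 5-base core, TGACG or CGTCA on either strand, was found in 22 of 72 windows and 18 genes, and in 20.8% of all windows; the core is contained in the palindrome. Sequences run 5′ to 3′ on the strand of the gene, and capitals mark the palindrome or the core.
Prkar1a, chr11:109650699-109650998, plus strand: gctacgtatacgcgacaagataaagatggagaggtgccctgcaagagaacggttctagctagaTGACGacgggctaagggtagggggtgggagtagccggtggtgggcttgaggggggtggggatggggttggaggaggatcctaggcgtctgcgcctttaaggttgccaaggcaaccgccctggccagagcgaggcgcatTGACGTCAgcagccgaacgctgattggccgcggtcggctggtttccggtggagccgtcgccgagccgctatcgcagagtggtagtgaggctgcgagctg
Creb5, chr6:53287053-53287352, plus strand: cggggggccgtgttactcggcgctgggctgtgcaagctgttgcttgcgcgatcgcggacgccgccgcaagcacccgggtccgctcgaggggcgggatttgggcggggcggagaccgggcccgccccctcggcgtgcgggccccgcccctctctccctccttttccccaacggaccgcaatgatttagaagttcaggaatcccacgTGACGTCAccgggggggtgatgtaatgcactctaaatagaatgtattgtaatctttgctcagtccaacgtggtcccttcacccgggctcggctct
Pde4b, chr4:102421305-102421604, plus strand: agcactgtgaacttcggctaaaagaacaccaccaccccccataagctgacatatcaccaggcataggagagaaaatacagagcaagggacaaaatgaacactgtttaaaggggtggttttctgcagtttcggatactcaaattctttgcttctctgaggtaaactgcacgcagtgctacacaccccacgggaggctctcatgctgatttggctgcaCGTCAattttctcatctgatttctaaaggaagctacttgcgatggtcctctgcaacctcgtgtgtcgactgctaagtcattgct
Prkar1b, chr5:139149952-139150251, minus strand: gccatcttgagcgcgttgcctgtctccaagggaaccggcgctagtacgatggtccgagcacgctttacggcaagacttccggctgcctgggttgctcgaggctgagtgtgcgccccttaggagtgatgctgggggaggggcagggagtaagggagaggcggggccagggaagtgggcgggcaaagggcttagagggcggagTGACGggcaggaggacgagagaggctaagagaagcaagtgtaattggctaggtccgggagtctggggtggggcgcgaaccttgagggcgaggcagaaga
Pde4a, chr9:21183851-21184150, plus strand: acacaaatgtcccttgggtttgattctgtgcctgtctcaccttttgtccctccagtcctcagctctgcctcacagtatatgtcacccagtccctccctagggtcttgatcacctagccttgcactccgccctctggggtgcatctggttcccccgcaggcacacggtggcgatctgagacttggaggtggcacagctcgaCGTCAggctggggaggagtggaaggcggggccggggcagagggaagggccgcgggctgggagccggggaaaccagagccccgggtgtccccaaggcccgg
Adcy2, chr13:68999492-68999791, minus strand: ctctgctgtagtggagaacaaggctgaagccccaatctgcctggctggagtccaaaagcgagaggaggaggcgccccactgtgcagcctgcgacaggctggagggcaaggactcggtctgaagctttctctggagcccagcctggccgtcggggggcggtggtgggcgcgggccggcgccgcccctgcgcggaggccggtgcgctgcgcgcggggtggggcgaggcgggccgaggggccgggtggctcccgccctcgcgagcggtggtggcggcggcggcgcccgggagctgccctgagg
The Prkar1a window holds the palindrome 49 bases and a core 187 bases upstream of the start, and the Creb5 window the palindrome 45 bases upstream. The single cores of Pde4b, Prkar1b and Pde4a begin 34, 49 and 50 bases upstream. These letters are not in the Adcy2 window. A match of letters is a description and not a site shown to be bound. Other starts are listed for Prkar1a, Creb5, Pde4b, Prkar1b and Pde4a, and for these genes the window with the most matches is shown. Adcy2 has 1 listed window, so its lack of a match is not a like comparison with the others.

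Among the adenylyl cyclases, Adcy2 was the most abundant in cKO replicates 1 and 3 and Adcy3 was lower in all 3 cKO libraries than in every control. Adcy2 (GRCm39 chromosome 13, 68768162 to 69147660, minus strand), a cyclase that Gs and the beta-gamma subunits of G proteins stimulate, had 103, 76.4 and 31.6 CPM across the control pools, against 449, 0 and 328 CPM across the cKO pools. Its levels in cKO replicates 1 and 3 were above all 3 controls, and cKO replicate 2 was below them. The mean without that library was 5.52 times the control mean, with a log2 difference of 2.46 (edgeR's quasi-likelihood test, SE 0.52, Benjamini-Hochberg adjusted p = 0.662). Adcy3 (chromosome 12, 4183103 to 4263525) had 31.1, 40.5 and 37.4 CPM across the control pools, against 7.48, 0 and 13.5 CPM across the cKO pools, which did not overlap. The 0 of cKO replicate 2 is not particular to Adcy3, since 42 of the 48 genes had 0 counts there. The log2 difference of Adcy3 was -1.79 (edgeR, SE 0.74, adjusted p = 0.767) without cKO replicate 2 and -2.32 (edgeR, SE 1.83, adjusted p = 0.9999) with it. All of the last 500 exon bases of Adcy3 (100%) are shared with Cenpo, which had 0 counts in every library. Reads over bases shared by several genes are left out by default, so the Adcy3 level is uncertain.

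The make-up of the cyclases differed between these libraries. Adcy2 took 36.2%, 46.7% and 15.9% of all cyclase counts in the controls and 71.7% and 67.3% in cKO replicates 1 and 3. Adcy3 took 10.9%, 24.7% and 18.9% in the controls and 1.2% and 2.77% in these cKO libraries. The 95% Wilson intervals of these shares reached at most 2.15 percentage points to either side and cover counting error only. A share within a library does not depend on how libraries are scaled. The summed level of the 8 cyclases was 284, 164 and 199 CPM across the control pools, against 625, 0 and 487 CPM across the cKO pools. The neuron markers moved in part with Adcy2: their sum given above was highest in cKO replicates 1 and 3, though close to that of control replicate 1. Dcx, a microtubule protein of migrating young neurons, measured 198, 148 and 40.4 CPM in the controls, against 686, 8.80 and 621 CPM in cKO replicates 1 to 3. Its order over the libraries was the same as that of Adcy2. Of the 9 neuron markers, only Dcx and Snap25 were above every control in cKO replicates 1 and 3. Tubb3, Stmn2, Map2, Gad1 and Slc17a7 were each highest in a control, and Gad1 had 0 counts in every cKO library. The part of the neuron markers in the Adcy2 values was not tested.

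Of the other cyclases, the calcium-stimulated Adcy8 had 37.7, 17.0 and 40.1 CPM across the control pools, against 56.5, 0 and 54.2 CPM across the cKO pools. Adcy1, also stimulated by calcium and calmodulin, had 34.1, 9.56 and 3.69 against 58.6, 0 and 27.4 CPM, which overlapped. Adcy5 and Adcy6 are closely related cyclases that Gi and calcium inhibit. Adcy5 had 0 counts in control replicate 2 and 12.9 to 13.2 CPM in the other controls, against 38.9 and 15 CPM in cKO replicates 1 and 3. Adcy6 ranged from 13.0 to 52.8 CPM in the controls and had 15.2 and 41.7 CPM in the same cKO libraries. Adcy9, a widely expressed cyclase, had 230, 93 and 224 counts across the control pools, against 0, 0 and 84 across the cKO pools, with its lowest control just above cKO replicate 3. Adcy7 had 51, 0 and 48 counts against 0, 0 and 2. Pooled over the groups without cKO replicate 2, Adcy7 was 31.8 times higher in the controls (95% counting interval 8.57 to 266), although 1 control had none. That interval covers counting error only and not the spread between pools. The standard error of the fitted log2 fold change of Adcy7 was 3.34, as given above.

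**Figure D3:**
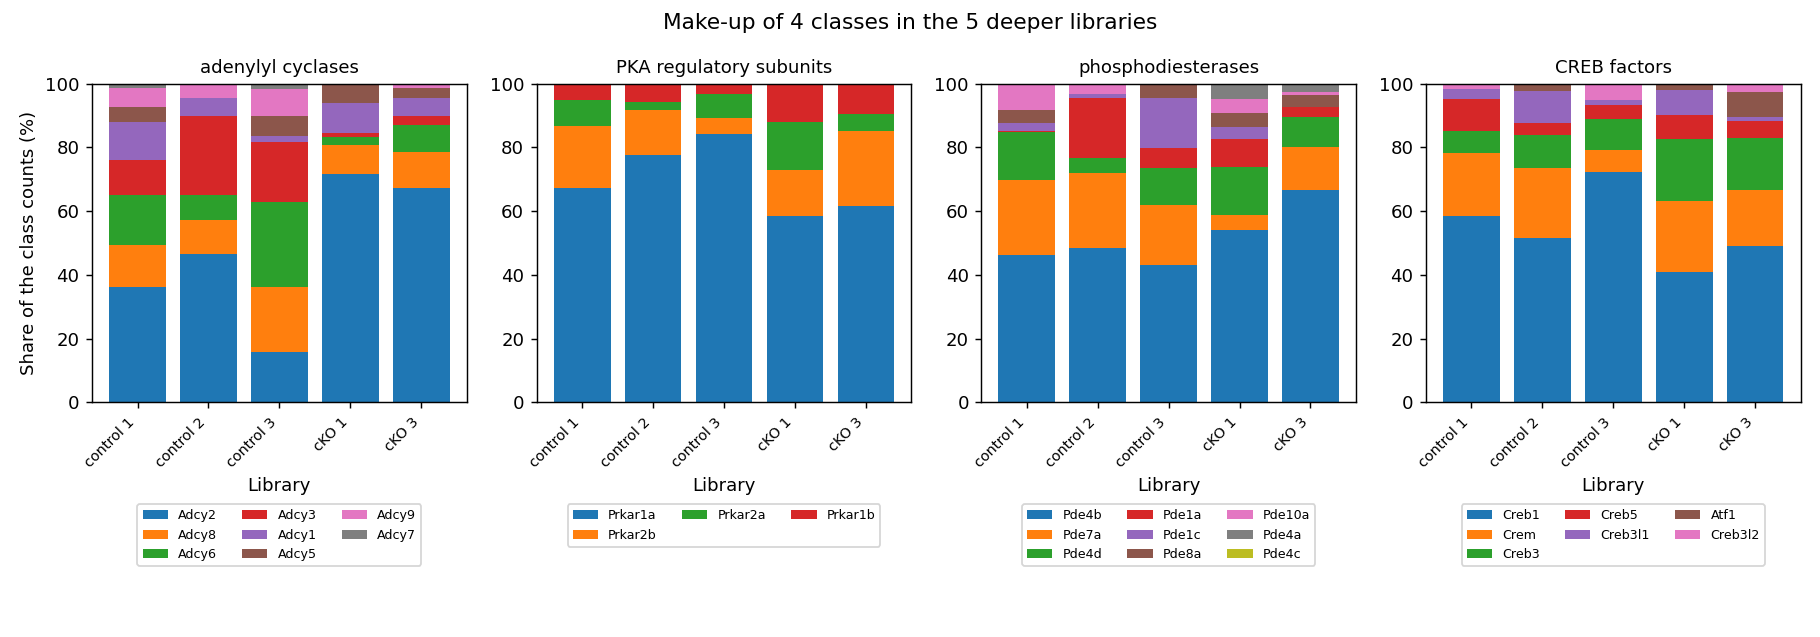
Share of each gene in the counts of its class (vertical axis, percent) in each of the 5 deeper libraries (horizontal axis), with 1 panel per class and 1 colour per gene. Adcy2 fills at least 67.3% of the cyclase bar in cKO replicates 1 and 3 and at most 46.7% in the controls, and Pde4b and Prkar1b take larger shares of their bars in the same cKO libraries.

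Among the alpha subunits, the inhibitory Gi genes made up most counts. Gnai2 had 431, 864 and 735 CPM across the control pools, against 555, 3.52 and 557 CPM across the cKO pools, and the groups overlapped. The log2 difference with all 6 libraries was -0.86 (edgeR, SE 0.89, adjusted p = 0.9999), and it was -0.27 without cKO replicate 2. Gnai3 had 391, 336 and 341 CPM against 288, 0 and 243 CPM, so every cKO library lay below every control. The difference was small, with a log2 difference of -0.41 (edgeR, SE 0.27, adjusted p = 0.905) without cKO replicate 2. Gnai1 went the other way, with 29.7, 34.5 and 40.5 CPM across the control pools, against 78.0 and 54.9 CPM in cKO replicates 1 and 3, a log2 difference of 0.95 (edgeR, SE 0.47, adjusted p = 0.767). The share of Gnai1 among the 5 alpha subunits was 2.78% to 3.59% in the controls and 6.20% to 8.06% in these cKO libraries. In cKO replicate 2 Gnai1 and Gnai3 had 0 counts and Gnai2 had 2.

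The stimulatory subunits were poorly covered. Gnas, which encodes Gs alpha, had only 107, 9 and 18 counts across the control pools, against 291, 0 and 149 across the cKO pools. It shares 93.6% of its last 500 exon bases with the overlapping gene model Gm20721, which had 0 counts in all 6 libraries. The level of Gnas is uncertain for the same reason as that of Adcy3. Smaller stretches of the same kind were shared by Adcy6 (22.0%), Gnal (2.0%) and Akap9 (33.2%). Gnal, the Gs-like subunit of olfactory and striatal neurons, had 39.0, 4.08 and 10 CPM across the control pools, against 25.7, 0 and 18.1 CPM across the cKO pools, and the groups overlapped.

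None of the 7 PKA genes was below 168 counts in any deeper library, and Prkar1a was the most abundant of them in every library but control replicate 1, where Pkia had 5641 counts and Prkar1a 5594. Prkar1a (chromosome 11, 109540231 to 109560482), the regulatory subunit RI alpha that holds the kinase inactive in most cells, had 410, 435 and 519 CPM across the control pools, against 537, 1325 and 442 CPM across the cKO pools. In the 5 deeper libraries the groups overlapped and the mean of cKO replicates 1 and 3 was 1.08 times the control mean. The high value of cKO replicate 2 came from 753 counts, 799 of its 860 counts for the whole list being in the 4 regulatory subunits. With all 6 libraries the log2 fold change was 0.72 (edgeR, SE 0.83, adjusted p = 0.9999), and it lay at 0.13 without cKO replicate 2.

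Prkar1b (chromosome 5, 139003061 to 139135756, minus strand), the RI beta subunit found mainly in neurons, had 32.1, 32.7 and 19.2 CPM across the control pools, against 111, 1.76 and 69.1 CPM across the cKO pools. Both cKO replicates 1 and 3 were above every control and cKO replicate 2, with 1 count, was below. Without the latter the log2 fold change was 1.70 (edgeR, SE 0.51, adjusted p = 0.767). Its share of the regulatory subunits was 5.27%, 5.83% and 3.11% in the controls and 12.1% and 9.64% in cKO replicates 1 and 3, with 95% Wilson intervals of at most 0.646 points to either side. The summed neuron markers were also highest in these libraries, though close to control replicate 1. Singly, Tubb3, Stmn2, Map2, Gad1 and Slc17a7 were each highest in a control. Their part in the Prkar1b values was not tested. Prkar1a took 67.3% to 84.2% of the regulatory counts in the controls and 58.3% to 61.7% in these cKO libraries.

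The RII subunits varied more between pools. Prkar2b, the neural RII beta subunit, had 118, 79.0 and 31.5 CPM across the control pools, against 135, 79.2 and 168 CPM across the cKO pools. It overlapped only through cKO replicate 2, whose level rested on 45 counts. Prkar2a, RII alpha, had 49.3, 13.2 and 46.6 CPM against 138, 0 and 37.6 CPM, and its log2 difference of 1.31 (edgeR, SE 0.75, adjusted p = 0.830) without cKO replicate 2 came from cKO replicate 1, being 0.02 when that library was left out as well.

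The catalytic subunits were less abundant than Prkar1a in every library. Prkaca had 94.0, 53.5 and 89.5 CPM across the control pools, against 114, 0 and 118 CPM across the cKO pools. Its difference on the log2 scale was 0.57 (edgeR, SE 0.39, adjusted p = 0.918) without cKO replicate 2 and -0.02 (edgeR, SE 1.74, adjusted p = 0.9999) with it. Prkacb had 65.8, 54.5 and 40.5 CPM against 41.2, 0 and 86.8 CPM. Regulatory subunits took 79.2% to 83.8% of all PKA counts in the controls and 77.8% to 85.6% in cKO replicates 1 and 3, so the balance of regulatory to catalytic tags overlapped between the groups. Pkia, which encodes the heat-stable inhibitor that blocks the catalytic subunit, had 413, 256 and 94.9 CPM across the control pools, against 261, 1.76 and 317 CPM across the cKO pools. All 7 genes of the class had a log2 fold change above 0 without cKO replicate 2, with a median of 0.57. The class summed to 1182, 924 and 841 CPM across the control pools, against 1337, 1407 and 1238 CPM across the cKO pools, so that every cKO library lay above every control. In cKO replicate 2 this sum was Prkar1a for 1325 of its 1407 CPM. The choroid plexus markers reached 47580 CPM in the same library through Ttr (45940 CPM) and Enpp2 (1636 CPM). Folr1, Kl, Clic6 and Aqp1 had 0 counts there. The part of these markers in the PKA sum was not tested.

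**Figure D4:**
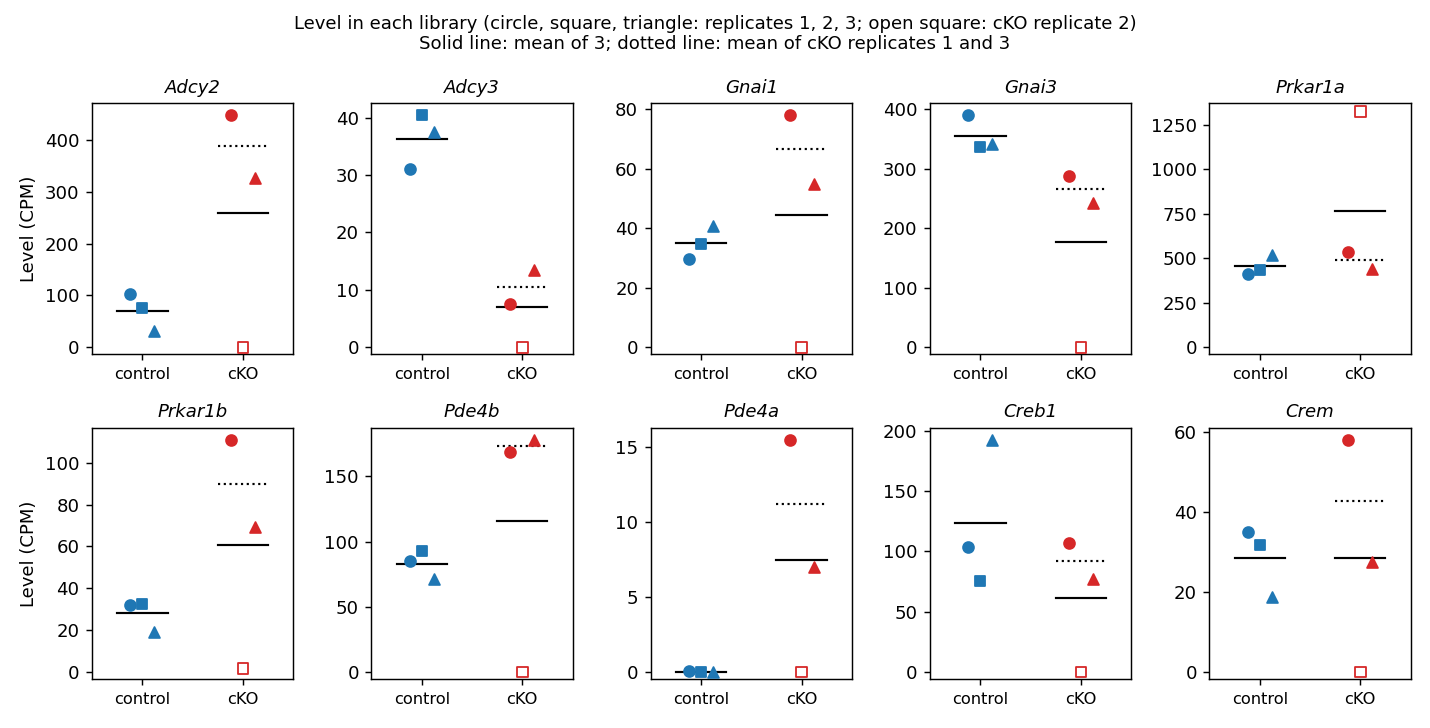
Level of 10 genes in each library (vertical axis, CPM), controls in blue and cKO in red, with a symbol for each replicate and an open square for cKO replicate 2. Solid lines are means of 3 libraries and dotted lines means of cKO replicates 1 and 3. Adcy2, Gnai1, Prkar1b, Pde4b and Pde4a lie above the controls in cKO replicates 1 and 3, Adcy3 and Gnai3 lie below, and Prkar1a stands out at 1325 CPM in cKO replicate 2.

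The anchoring proteins were thinly covered. Akap9 and Akap12 had almost no counts, with 16 in cKO replicate 3 for Akap9 and 40 in control replicate 3 for Akap12, and neither was tested. Akap1, which tethers PKA to mitochondria, had 12.6, 9.49 and 9.14 CPM across the control pools, against 62.1, 0 and 9.09 CPM across the cKO pools. Its log2 difference of 1.81 (edgeR, SE 1.0, adjusted p = 0.808) without cKO replicate 2 rested on cKO replicate 1 and was -0.23 without that library. With all 6 libraries it was 1.23 (edgeR, SE 1.83, adjusted p = 0.9999). Akap11, a large anchoring protein that also binds the kinase GSK3, had 35.4, 27.6 and 22.8 CPM against 13.4, 0 and 87.7 CPM. It had a log2 difference of 0.80 (edgeR, SE 0.79, adjusted p = 1) that was -1.05 without cKO replicate 3. Akap6, an anchor at the nuclear envelope, had 480, 0 and 106 counts against 364, 0 and 208.

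Each Epac gene had 0 counts in a control library and in cKO replicate 1, and Rapgef3 was low where it was counted. Rapgef3 (Epac1) had 1, 0 and 49 counts across the control pools, against 0, 0 and 44 across the cKO pools. Rapgef4 (Epac2), the form common in brain, had 213, 140 and 0 against 0, 0 and 179 counts. Their log2 fold changes without cKO replicate 2 were 0.65 (edgeR, SE 3.01, adjusted p = 1) and -0.29 (edgeR, SE 2.86, adjusted p = 1), so the data did not resolve a difference in either direction. With all 6 libraries that of Rapgef4 was -0.82 (edgeR, SE 2.35, adjusted p = 0.9999).

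Among the phosphodiesterases, Pde4b was the most abundant in each of the 5 deeper libraries. Pde4b (chromosome 4, 101944740 to 102464456), a cAMP-specific enzyme that PKA itself can activate, had 85.0, 92.7 and 71.6 CPM across the control pools, against 169, 0 and 178 CPM across the cKO pools. The 3 controls lay close together, as did cKO replicates 1 and 3, whose mean was 2.09 times the control mean. Without cKO replicate 2 the log2 fold change was 1.07 (edgeR, SE 0.33, adjusted p = 0.767), and leaving out any further library kept it between 0.93 and 1.16. Pde4b took 42.9% to 48.4% of phosphodiesterase counts in the controls and 54.2% to 66.8% in cKO replicates 1 and 3.

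Pde4a, another cAMP-specific enzyme of the same family, had 1, 0 and 0 counts across the control pools, against 215, 0 and 82 across the cKO pools. Over the pooled counts without cKO replicate 2 cKO exceeded control 462 times (95% counting interval 82.3 to 18320, counting error only). The fitted log2 difference was 8.37 (edgeR, SE 2.97, adjusted p = 0.767). A gap of this kind also occurred inside the control group, as given above for 13.1% of all genes. Pde4d, the main enzyme of the family in many tissues, had 28.0, 9.17 and 19.2 CPM across the control pools, against 47.2, 0 and 25.4 CPM across the cKO pools, which overlapped. Pde4c had 6 counts in control replicate 2 and 0 elsewhere and was not tested.

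Pde7a, a high-affinity cAMP phosphodiesterase, had 43.6, 44.9 and 31.7 CPM across the control pools, against 14, 0 and 35.6 CPM across the cKO pools. On the log2 scale its difference was -1.27 with all 6 libraries (edgeR, SE 1.74, adjusted p = 0.9999). The value was -0.70 without cKO replicate 2 and -2.39 without cKO replicate 3. Its share of the class was 19.0% to 23.6% in the controls and 4.50% to 13.3% in cKO replicates 1 and 3. Pde8a had 7.62, 0 and 7.67 CPM against 14.2, 0 and 10 CPM. The calcium- and calmodulin-dependent Pde1a and Pde1c and the striatal Pde10a each had under 10 counts in at least 1 of the 5 deeper libraries and overlapped between groups. In sum the 9 phosphodiesterases reached 184, 192 and 167 CPM across the control pools, against 311, 0 and 267 CPM across the cKO pools. The summed cyclases and the summed phosphodiesterases, which make and remove cAMP, were thus both higher in cKO replicates 1 and 3 than in every control. Adcy2 took 71.7% and 67.3% of the cyclase counts there, and Pde4b 54.2% and 66.8% of the phosphodiesterase counts. Adcy5, Adcy8, Pde4a and Pde8a were also above every control, while Adcy3 and Adcy9 were below. The cAMP level itself was not measured.

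The CREB factors showed no separation of the groups as a class. They summed to 177, 146 and 267 CPM across the control pools, against 262, 0 and 158 CPM across the cKO pools. Creb1 (chromosome 1, 64571804 to 64643707), the founding CREB gene, had 103.6, 75.3 and 193 CPM across the control pools, against 107, 0 and 77.5 CPM across the cKO pools. Both cKO replicates 1 and 3 lay within the range of the controls. The log2 fold change was -0.38 (edgeR, SE 0.46, adjusted p = 1) without cKO replicate 2 and -0.97 (edgeR, SE 1.72, adjusted p = 0.9999) with it. Crem, which encodes activators and the inducible repressor ICER, had 35.1, 31.8 and 18.7 CPM against 58.1, 0 and 27.6 CPM. Its log2 difference was 0.60 (edgeR, SE 0.65, adjusted p = 1) without cKO replicate 2 and 0.02 (edgeR, SE 1.71, adjusted p = 0.9999) with it. Leaving out 1 more of the deeper libraries took the 5-library value of Creb1 to 0.0184 (control replicate 3) and that of Crem to -0.0921 (cKO replicate 1). Gene counts do not tell the activator from the repressor transcripts.

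Atf1, the third member of this subfamily, was detected in few libraries, with 0, 45 and 0 counts across the control pools, against 76, 0 and 142 across the cKO pools. It was higher in cKO replicates 1 and 3 than in every control, with a log2 difference of 2.86 (edgeR, SE 3.04, adjusted p = 1) without cKO replicate 2 and 2.29 (edgeR, SE 2.64, adjusted p = 0.9999) with it. These values rested on control replicate 2, the 1 control with counts, and without it they were 9.86 and 8.99. Creb3, a factor anchored in the endoplasmic reticulum membrane, had 11.7, 15.2 and 25.9 CPM against 50.5, 0 and 25.7 CPM. The log2 difference was 1.16 (edgeR, SE 0.74, adjusted p = 0.883) without cKO replicate 2, and Gba2 shares 26.6% of the last 500 exon bases of Creb3. Leaving out cKO replicate 1 as well gave 0.52. Creb3 took 6.62% to 10.4% of the counts of the class in the controls and 16.3% to 19.3% in cKO replicates 1 and 3, while Creb1 took 51.6% to 72.2% and 41.0% to 49.2%. Creb3l1 and Creb3l2, relatives of Creb3 in secretory cells, ranged over 55 to 185 and 0 to 191 counts among the control pools, against 23 to 286 and 0 to 50 in these cKO libraries. Creb5 had 71 to 247 against 100 to 273 counts.

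No coactivator exceeded 43.8 CPM in the 5 deeper libraries. Crebbp, which encodes CBP, had 246, 1 and 84 counts across the control pools, against 0, 0 and 293 across the cKO pools. Ep300, which encodes p300, had 218, 4 and 129 against 0, 0 and 132 counts. These related acetyltransferase genes were thus low or absent in the same libraries, control replicate 2 and cKO replicates 1 and 2, without a separation by genotype. Crtc2, a coactivator that enters the nucleus when cAMP or calcium rises, had 19.9, 3.68 and 26.3 CPM across the control pools, against 43.8, 102 and 24.2 CPM across the cKO pools. Its difference on the log2 scale was 1.74 (edgeR, SE 1.76, adjusted p = 0.9999) with all 6 libraries and 1.08 (edgeR, SE 0.95, adjusted p = 1) without cKO replicate 2, where its level rested on 58 counts. The latter value was 0.52 without cKO replicate 1 as well. Crtc1, the form most abundant in neurons, had 14.8, 9.49 and 10.2 CPM against 1.80, 0 and 14.6 CPM, a log2 difference of -0.51 (edgeR, SE 1.58, adjusted p = 1) without cKO replicate 2 that turned to 0.31 without cKO replicate 1 as well. Crtc3 had 11.3 to 25.8 CPM across the control pools, against 13.4 and 16.4 CPM in cKO replicates 1 and 3.

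Other genes of the pathway did not pass the test either. Of 29 further paralogs of these families 17 were tested without cKO replicate 2, with 6 log2 fold changes above 0 and 0 past an adjusted p of 0.05 by edgeR. Of 25 receptors linked to cAMP 13 were tested, with 7 above 0 and 0 past it, and of 28 other effectors, CREB kinases and phosphatases 27 were tested, with 16 above 0 and 0 past it. An unadjusted p under 0.05 was reached by 0, 1 and 1 genes of these lists, against 6.09% of all genes. These are described because the naming rule takes the smallest p of each list. The receptor gene was Adcyap1r1, which encodes the Gs-coupled receptor of the peptide PACAP. It had 387, 115 and 202 counts across the control pools, against 1129, 0 and 715 across the cKO pools, a log2 difference of 2.04 (edgeR, SE 0.65, adjusted p = 0.767) without cKO replicate 2. Gpr161, a ciliary receptor that raises cAMP and restrains Hedgehog signalling, had 11.5, 24.4 and 16.4 CPM against 56.3, 0 and 21.9 CPM, a log2 difference of 1.19 (edgeR, SE 0.76, adjusted p = 0.883) without cKO replicate 2. The cKO replicates 1 and 3 lay on either side of control replicate 2. Sstr3, a ciliary somatostatin receptor, had 0 counts in all 6 libraries. The effector gene was Popdc3, which encodes a cAMP-binding membrane protein. It was counted 88, 182 and 504 times among the control pools and 0 times in all 3 cKO libraries. Its adjusted p by edgeR was 0.767 without cKO replicate 2 and 0.796 with it. Among the alpha subunits outside the list, the inhibitory Gnaz had 53.9, 29.2 and 23.0 CPM against 69.0, 0 and 99.9 CPM, a log2 difference of 1.25 (edgeR, SE 0.54, adjusted p = 0.767) without cKO replicate 2. Pde8b, a relative of Pde8a, had 227, 0 and 56 counts across the control pools, against 0 in each cKO pool (edgeR, adjusted p = 0.767, without cKO replicate 2). Ppp3cb, a catalytic subunit of the phosphatase calcineurin that activates the CRTC proteins, had 401, 407 and 296 CPM against 553, 273 and 544 CPM, so that cKO replicate 2 lay below the other cKO libraries and below the controls. Without it the log2 difference was 0.58 (edgeR, SE 0.28, adjusted p = 0.767).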

How the data were processed

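Libraries came from a QuantSeq FWD kit, in which reads start near the 3' end of transcripts, per the labels' protocols. Each sample's deposited file holds raw counts per gene, from featureCounts 2.0.0 with exons of Ensembl release 104 on GRCm39, per the file headers. The command sets no option for strand, for multiple alignments or for reads over several genes, per the file headers. The submitters' processing notes also name STAR, FastQC and DESeq2, without saying what each was used for.

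Identifiers were matched to symbols (52083 of 55416). Genes passing filterByExpr were scaled by TMM and tested in edgeR 4.0.16 (R 4.3.3) with glmQLFit (robust) and glmQLFTest, two-sided, with all 6 libraries and without cKO replicate 2, adjusting over all genes tested. Standard errors are the log2 fold change over the root of F. CPM used the total count of a library. On simulated counts the test recovered known changes at a low spread but not at the spread estimated from these libraries, so it had little power at that spread. The simulation gave all genes of a comparison the same spread, so power for genes with a smaller spread was not measured. The members and lists were chosen with earlier results of these data known. A log2 difference is cKO minus control and is given for the smallest p of each class (2 genes without cKO replicate 2, 1 with all 6 libraries), for Adcy3, Prkaca, Creb1 and Crem, and for the 2 smallest of each further list; Sstr3 was added with its values seen. Alternatives were RLE size factors, DESeq2 1.42.0, no filter, the replicate number as a block and leaving out each library. Same-numbered libraries were not treated as pairs, since their deviations from the group means correlated by 0.079, 0.051 and 0.011.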

Additional observations from a re-analysis of the deposited data

How the results depend on the processing

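With all 6 libraries, 2 genes of 12833 passed by edgeR, none of them among the 48, and the count was 16 with RLE size factors, 5 with DESeq2, 23 with no filter, 1 with the replicate number as a block, and 1 to 7 with each library left out in turn. Without cKO replicate 2, 1 gene passed, 298 with DESeq2 and 0 to 2 with each further library left out. Of the 48, 0 passed in all of these except for 2, Adcy2 and Pde4a, with DESeq2 without cKO replicate 2. The cause of the difference between the tools was not tested. Of 110 alternative log2 fold changes of named members with all 6 libraries 11 changed sign, and of 170 without cKO replicate 2, 9 did. With the replicate block those of Akap1 and Crem with all 6 libraries were -0.28 and -0.75 and that of Rapgef3 without cKO replicate 2 was -0.95. Prkaca with all 6 libraries was 0.0724 with RLE size factors, 0.0707 with DESeq2 and 0.0093 with no filter. With each library left out the ranges were -1.13 to 1.81 for Akap1, -1.04 to 0.60 for Crem and -0.44 to 0.57 for Prkaca with all 6 libraries. Without cKO replicate 2 they were -0.23 to 2.61 for Akap1, -1.05 to 1.57 for Akap11, -0.70 to 0.0184 for Creb1, -0.0921 to 1.06 for Crem, -2.63 to 0.31 for Crtc1, -7.00 to 1.61 for Rapgef3 and -9.92 to 0.72 for Rapgef4. The cause of these changes of sign was not tested, and the fits with a library left out also had fewer samples. Genes with separated groups numbered 15 without cKO replicate 2, 16 with TMM sizes, 3 with cKO replicate 2, and 17 to 30 with 1 further library left out, which by construction makes separation easier and was chosen after seeing the data. The replicate block changed no call of the 48. In cKO replicate 2 a count of 0 allows levels up to 5.28 CPM.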
